A study of Bos taurus with 9 samples.

Results

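The 10 genes described here are enzymes and a transporter of glycolysis and genes known to respond to low oxygen: SLC2A1, HK2, PFKFB3, PFKFB4, PGK1, LDHA, VEGFA, ADM, CA9 and NDRG1. They were chosen by gene name, with earlier results of these data known. All 10 are among the 20679 genes of the deposited files and passed the filter on low counts. RNA-seq was run on day 5 of culture on bovine (Bos taurus) uterine gland fragments embedded in Matrigel, a basement membrane gel. The CYST group (n = 3) was the control without epidermal growth factor (EGF), in which the fragments formed cysts. The UG-LIKE or MAT group (n = 3) received EGF in Matrigel and formed uterine gland-like structures, and the MAT + COL group (n = 3) received EGF in Matrigel with collagen I added. All groups shared a medium with insulin, transferrin, selenite, ascorbic acid and albumin. The fragments were isolated from uteri collected at an abattoir, many fragments went into each sample, and the labels give no animal for any library. MAT and UG-LIKE are names of the same 3 libraries.

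Glycolysis turns glucose into pyruvate in the cytosol, and cells with little oxygen rely on it and turn the pyruvate into lactate. Hypoxia-inducible factors (HIF), which oxygen-dependent prolyl hydroxylases mark for degradation, raise the transcription of many glycolytic genes and of genes for blood vessel growth and acid export. Growth factor signalling through the EGF receptor can also raise glucose use, and the uterine glands draw on glucose to make their secretions for the conceptus.

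In the deposited annotation on ARS-UCD2.0, the glucose transporter SLC2A1 (ENSBTAG00000009617) lies on chromosome 3 from 103309079 to 103337308, and the hexokinase HK2 (ENSBTAG00000013108) on chromosome 11 from 9742515 to 9810297. PFKFB3 (ENSBTAG00000008401) lies on chromosome 13 from 17206312 to 17372289 and PFKFB4 (ENSBTAG00000006752) on chromosome 22 from 51322010 to 51363418. PGK1 (ENSBTAG00000000894) is on chromosome X from 74244893 to 74267571 and LDHA (ENSBTAG00000008683) on chromosome 29 from 26290893 to 26303215. These spans are whole genes with exons and introns. VEGFA (ENSBTAG00000005339) lies on chromosome 23 from 17281915 to 17297193, ADM (ENSBTAG00000021048) on chromosome 15 from 42377322 to 42382803, CA9 (ENSBTAG00000011420) on chromosome 8 from 59848976 to 59855511, and NDRG1 (ENSBTAG00000000711) on chromosome 14 from 8073250 to 8129604.

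The libraries held 6568968 to 17948600 counted reads, of which the 10 genes together took 0.346% to 1.01%. Gland epithelium markers summed to 16671 TPM or more in each library, against 4798 TPM or less for stroma markers. The EGF libraries were compared with the cysts by edgeR's quasi-likelihood test over all genes with Benjamini-Hochberg adjustment, and a gene was called when its adjusted p was under 0.05. The sample titles number the replicates 1 to 3 in each group, while the library names carry numbers that differ from these in part. Libraries with the same title number deviated together from their group means, so a second fit took the replicate number as a block. The study speaks of its MAT and MAT + COL samples as individuals, but which animal gave which library, and whether a number marks the same animal in CYST, is not given in the sources used here. If libraries of a group shared an animal, the p-values would measure only the spread between these libraries. In bulk RNA, fewer cells of a type and less RNA per cell cannot be told apart.

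The 10 genes differed widely in level on the TPM scale, which corrects for gene length and library size. LDHA, the subunit of lactate dehydrogenase that favours lactate formation, was the highest, from 1501 to 3398 TPM over the 9 libraries. PGK1, the glycolytic enzyme phosphoglycerate kinase, followed with 855 to 2267 TPM, and SLC2A1, the main basal glucose transporter of many epithelia, with 232 to 1220.1 TPM. The ranges of these neighbours overlapped. PFKFB3, ADM and CA9 came next and also overlapped, with ranges of 25.8 to 534, 21.0 to 370.4 and 14.8 to 212 TPM. NDRG1 ranged from 4.88 to 99.6 TPM. HK2, VEGFA and PFKFB4 were the lowest, with overlapping ranges of 4.10 to 20.3, 0.586 to 22.4 and 2.07 to 9.86 TPM. VEGFA rested on 13 to 398 reads per library, so its values are the least precise of the 10. Reads shared between PGK1 or LDHA and near-identical copies elsewhere in the genome may have been split by the counting, which the sources used here do not describe.

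**Figure D1:**
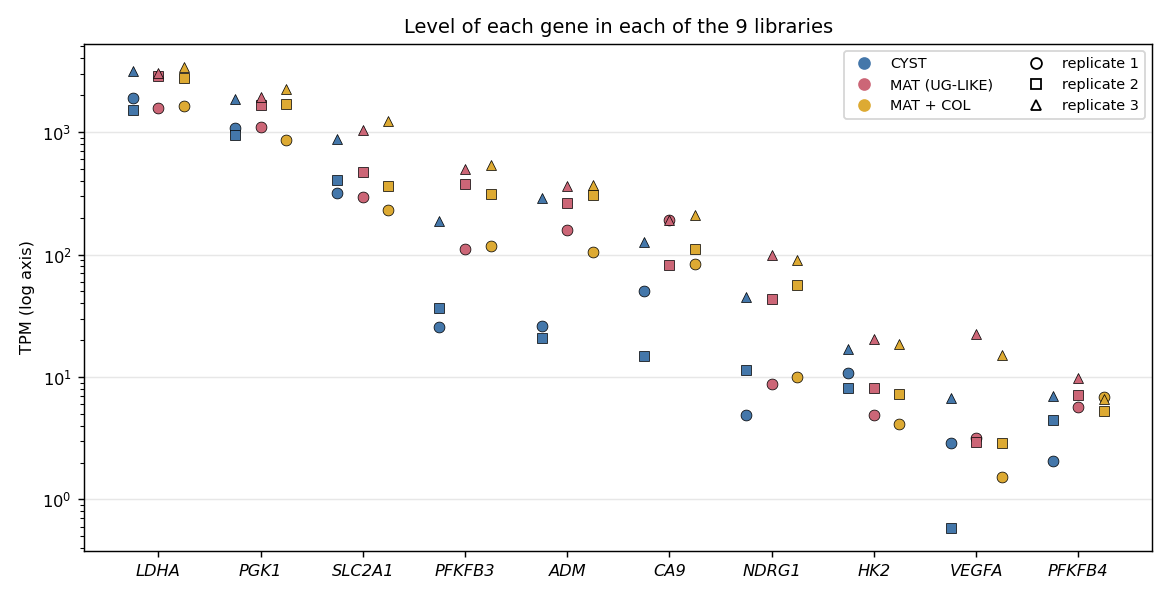
TPM (log axis) of each of the 10 genes in each of the 9 libraries, coloured by group and with a marker for the replicate number. Replicate 3 (triangles) was the highest library of each group for every gene but PFKFB4, and the 3 groups overlapped for all 10 genes.

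PFKFB3, CA9 and NDRG1 rose with EGF when libraries of the same replicate number were compared, and ADM had as large a difference that missed the threshold. The core enzymes HK2, PGK1 and LDHA and the transporter SLC2A1 were not called in any fit of this comparison. Without the block, 0 of the 10 genes were called between UG-LIKE and CYST, where 1.79% of all genes tested were called. With the block, 3 of the 10 were called, against 10.6% of all genes. The median Log2FC (log2 fold change) of the 10 genes was 0.88 without the block and 1.08 with it, and that of all genes tested was 0.01 in both fits. Within the pairs, 7 of the 10 genes had a higher TPM in UG-LIKE than in CYST in all 3 same-numbered pairs, against 25.1% of all genes. No gene of the 10 had groups that did not overlap, whereas 11.9% of all genes did so with UG-LIKE higher.

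PFKFB3 makes fructose 2,6-bisphosphate, the strongest known activator of the committed step of glycolysis. Its level was 25.8, 36.3 and 188 TPM in CYST replicates 1, 2 and 3 and 111, 375 and 497 TPM in the UG-LIKE replicates. The UG-LIKE library was the higher of each pair, by 4.29, 10.3 and 2.64 times, but UG-LIKE replicate 1 lay below CYST replicate 3. The Log2FC was 2.27 ± 0.40 (SE, n = 3 pairs) with the block (edgeR adjusted p = 0.0172) and 1.84 ± 0.89 without it (edgeR adjusted p = 0.288). PFKFB4, a related enzyme that both makes and breaks down this activator, was low, at 2.07, 4.43 and 6.97 TPM in CYST and 5.74, 7.13 and 9.86 TPM in UG-LIKE. It was higher with EGF in each pair, and its Log2FC of 0.84 ± 0.32 with the block was not called (edgeR adjusted p = 0.130).

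CA9, a carbonic anhydrase on the cell surface that helps cells export acid, stood at 50.4, 14.8 and 127 TPM in CYST and at 190.0, 81.7 and 191 TPM in UG-LIKE. Replicate 2 was the lowest library of both groups, and UG-LIKE replicate 2 lay below CYST replicate 3. The Log2FC of CA9 was 1.64 ± 0.38 with the block (edgeR adjusted p = 0.0378) and 1.14 ± 0.74 without it (edgeR adjusted p = 0.434). ADM encodes adrenomedullin, a peptide that widens blood vessels. It stood at 26.0, 21.0 and 287 TPM in CYST and 158, 265 and 366 TPM in UG-LIKE. The pairs rose by 6.08, 12.6 and 1.27 times, so that the difference lay almost wholly in replicates 1 and 2, where the cysts held little ADM. Its Log2FC of 2.23 ± 0.63 with the block missed the threshold (edgeR adjusted p = 0.0631).

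NDRG1, a cytoplasmic protein linked to differentiation and stress, stood at 4.88, 11.4 and 45.1 TPM in CYST and at 8.72, 43.2 and 99.6 TPM in UG-LIKE. Its pairs differed by 1.79, 3.78 and 2.21 times, and its Log2FC was 1.31 ± 0.26 with the block (edgeR adjusted p = 0.0254) and 1.19 ± 1.00 without it (edgeR adjusted p = 0.547). VEGFA, the main growth factor for blood vessels, stood at 2.89, 0.586 and 6.79 TPM in CYST and at 3.15, 2.95 and 22.4 TPM in UG-LIKE. It was nearly level in replicate 1 and higher with EGF in replicates 2 and 3. Its Log2FC of 1.37 ± 0.46 with the block was not called by edgeR (adjusted p = 0.101) and was called by DESeq2 with the block (adjusted p = 0.0348).

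SLC2A1 stood at 319, 404 and 873 TPM in CYST and at 295, 474 and 1041 TPM in UG-LIKE, nearly level within each pair. Its Log2FC with the block was 0.11, with a 95% interval from -0.28 to 0.51. HK2, which traps glucose in the cell as glucose 6-phosphate, stood at 10.8, 8.10 and 16.9 TPM in CYST and 4.93, 8.12 and 20.3 TPM in UG-LIKE. Its pairs moved in different directions, and the interval of its Log2FC ran from -0.96 to 0.42. PGK1 (1086, 954 and 1879.7 TPM in CYST, 1108, 1651 and 1934 TPM in UG-LIKE) and LDHA (1899, 1501 and 3172 TPM in CYST, 1573, 2870.4 and 3022 TPM in UG-LIKE) were clearly higher with EGF in replicate 2 alone. The intervals of their Log2FC with the block were -0.26 to 0.81 and -0.47 to 0.83. These intervals exclude a rise of the size seen for PFKFB3 but not a smaller change.

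**Figure D2:**
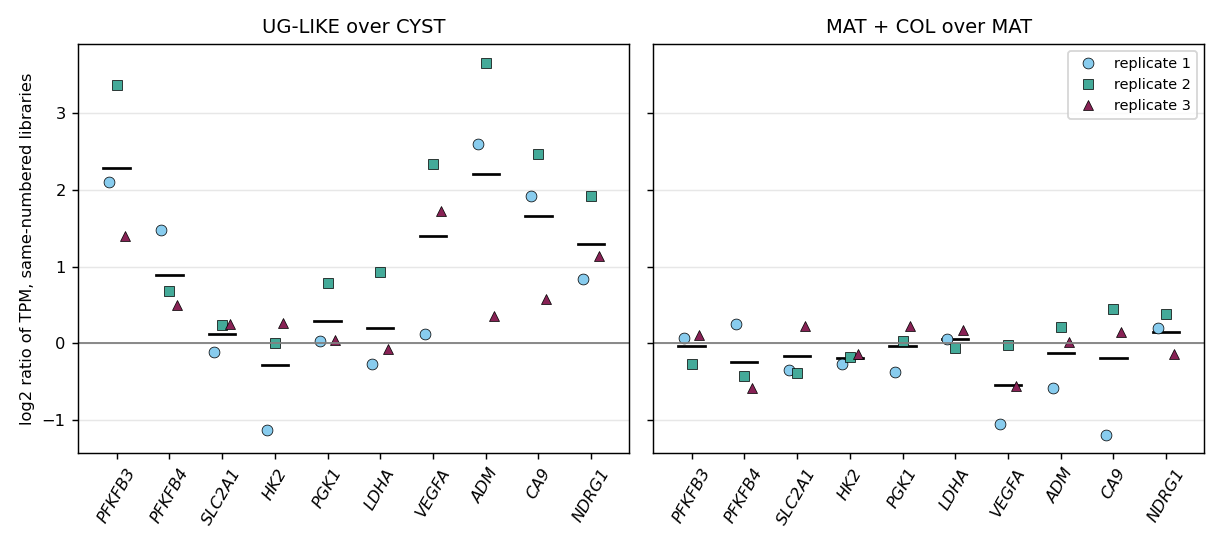
Log2 ratio of TPM between same-numbered libraries for UG-LIKE over CYST (left) and MAT + COL over MAT (right), with 1 point per replicate number and a bar at the mean of the 3. On the left, PFKFB3, PFKFB4, PGK1, VEGFA, ADM, CA9 and NDRG1 were above 0 in all 3 pairs, and on the right no gene was.

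The calls rested on few libraries. Without the replicate 1 pair, none of PFKFB3, CA9 and NDRG1 was called with the block (edgeR adjusted p from 0.114 to 0.212), and 36 of all genes were. Without the replicate 2 pair PFKFB3 alone was called, and without the replicate 3 pair PFKFB3, CA9, ADM and NDRG1 were. The count of all genes called also varied widely between leave-outs, and its range is given at the end. These calls are therefore not read as setting the 10 genes apart from other genes. The Log2FC of PFKFB3 lay between 1.67 and 2.83 over these fits. The summed level of the gland epithelium markers was 16671 to 18481 TPM in CYST and 27636 to 43347 TPM in UG-LIKE, most of it KRT8 and KRT19. With the block, 6 of the 7 tested markers had a positive Log2FC and 1 a negative one. The keratins KRT8 and KRT19 and the adhesion protein EPCAM were called higher. KRT18, FOXA2 and PAX8 moved in different directions between the pairs. Of 8 stroma markers, 7 had a negative Log2FC, with DCN called lower and VIM called higher with the block. The part of these shifts in the differences of the 10 genes was not tested.

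**Figure D3:**
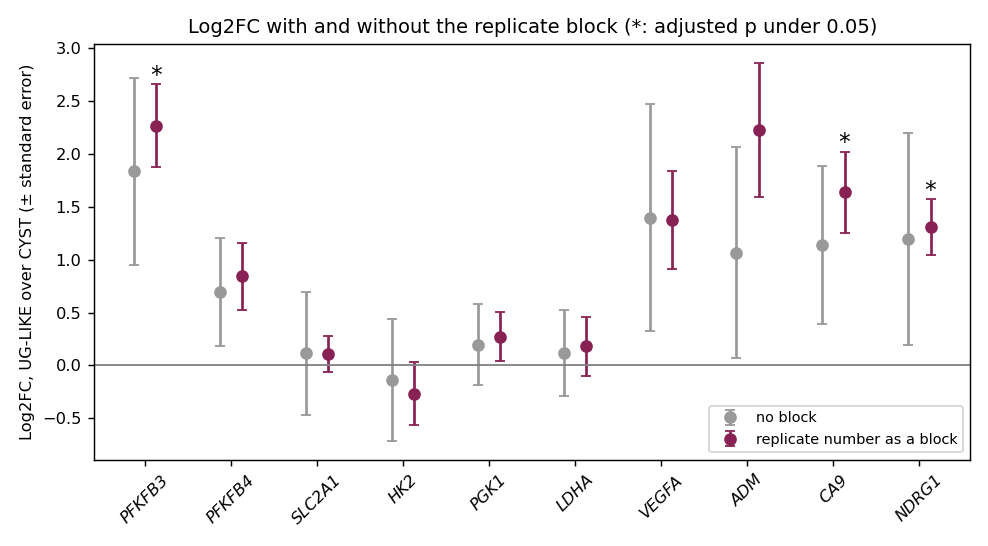
Log2FC of each gene in UG-LIKE over CYST (points) with its standard error (bars), without a block in grey and with the replicate number as a block in purple; a star marks an adjusted p under 0.05. The block narrowed the error of NDRG1 from 1.00 to 0.26 and that of PFKFB3 from 0.89 to 0.40, and the stars stand over PFKFB3, CA9 and NDRG1.

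Genes around the 10 were taken from lists written by pathway. The list counts of this comparison stand against 1.79% of all genes called without the block and 10.6% with it. Of 23 other genes of glycolysis and of glucose and lactate transport that were tested, 0 were called without the block and 4 with it. With the block PFKP, an isoform of phosphofructokinase (Log2FC 0.70), GAPDH (0.91) and HKDC1, a hexokinase-like gene (0.67), rose, and LDHB, the lactate dehydrogenase subunit that favours pyruvate, fell by 0.71. GAPDH and HKDC1 were named after their values were seen, and GAPDH has many near-identical copies in mammalian genomes. SLC16A1, a lactate and pyruvate transporter, stood at 1.32, 0.778 and 7.14 TPM in CYST and 19.2, 55.6 and 9.83 TPM in UG-LIKE, and its Log2FC of 3.43 ± 1.09 was not called (edgeR adjusted p = 0.0856 with the block). Of 10 genes for pyruvate entry into mitochondria, MPC1, a subunit of the pyruvate carrier, fell in both fits and the other 9 were not called. MPC1 stood at 188, 129 and 112 TPM in CYST and at 44.6, 34.8 and 38.5 TPM in UG-LIKE, with no overlap. Its Log2FC was -1.87 ± 0.23 without the block (edgeR adjusted p = 0.0216). DLAT and PDK4 of the same list had a Log2FC of -0.31 and -1.19 and were not called.

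Of 27 hypoxia-inducible genes outside glycolysis, 0 rose and 2 fell without the block (1.79% of all genes called). With it, 5 rose and 2 fell (10.6% of all genes called). Those that fell were CXCR4, a chemokine receptor (Log2FC -1.75, edgeR adjusted p = 0.0332 without the block), and TFRC, the transferrin receptor (Log2FC -1.22, edgeR adjusted p = 0.0448). Transferrin was part of the medium of all groups. The 5 that rose with the block were EGLN3, ANGPTL4, ERO1A, RORA and KDM4B, of which ERO1A, RORA and KDM4B were named after their values were seen. EGLN3, one of the prolyl hydroxylases that mark HIF and itself a HIF target, stood at 0.871, 0.385 and 17.3 TPM in CYST and at 22.1, 42.7 and 71.4 TPM in UG-LIKE. Every UG-LIKE library was above every CYST library, and the Log2FC was 4.02 ± 0.83 with the block (edgeR adjusted p = 0.0275) and 2.71 ± 1.24 without it (edgeR adjusted p = 0.266). ANGPTL4, a secreted regulator of lipoprotein lipase, stood at 9.26, 8.71 and 57.3 TPM in CYST and at 66.2, 245 and 127 TPM in UG-LIKE, also with no overlap, and its Log2FC was 2.88 ± 0.69 with the block (edgeR adjusted p = 0.0392).

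No transcript of a HIF subunit was called higher. HIF1A stood at 356, 547 and 345 TPM in CYST and at 393, 508 and 479.8 TPM in UG-LIKE, with a Log2FC of 0.16 and a 95% interval from -0.23 to 0.54 with the block. HIF1A activity is set largely by protein stability, which RNA-seq does not measure. EPAS1, the HIF-2 alpha subunit, fell by 0.93 on the log2 scale with the block (edgeR adjusted p = 0.0446), and ARNT2 fell by 1.31 (edgeR adjusted p = 0.0129). Of 9 tested genes of HIF subunits and their regulators, EGLN3, also counted among the 27 above, was the 1 that rose with the block.

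Of the partners of the remaining genes, none of 8 VEGF and adrenomedullin ligands and receptors was called in either fit. Among them were the VEGF receptor KDR (Log2FC 1.31), the ligand VEGFC (-2.72) and the co-receptor NRP2 (1.38). VEGFC rested on few reads, with 8, 15 and 15 in the CYST libraries and 1, 3 and 2 in the UG-LIKE libraries. Beside CA9, the bicarbonate transporters SLC4A7 and SLC4A4 rose (Log2FC 1.25 and 1.41 with the block) and the cytosolic carbonic anhydrase CA2 fell by 0.71. Of the NDRG family, NDRG2 rose with the block, from 31.1, 46.2 and 133 TPM in CYST to 228, 344 and 237 TPM in UG-LIKE, with a Log2FC of 2.21 (edgeR adjusted p = 0.0272). NDRG4 and NDRG3 had a Log2FC of -0.80 and 0.23 and were not called. In the pentose phosphate pathway TKT and RPIA fell with the block (Log2FC -0.87 and -1.02), RPE did not pass the test (-0.32), and 0 of 7 rose. Among 10 genes of gluconeogenesis and glycogen, FBP1, which reverses the committed step of glycolysis, rose with the block (Log2FC 1.24) and PCK2 fell by 0.73, while PYGL (0.64) and FBP2 (1.07) were not called.

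Collagen I was added to ask whether the matrix alters the EGF-treated structures. None of the 10 genes was called between MAT + COL and MAT, with or without the block, and neither was any other gene (0% of 12470 genes in both fits). At an unadjusted p under 0.05, edgeR gave 51 genes without the block and 618 with it, none of them among the 10. At an adjusted p under 0.05, DESeq2 called 0 genes, or 1 when blocked. None of the 10 genes was higher with collagen I in all 3 pairs, against 20.4% of all genes. HK2 and VEGFA were lower in all 3, which held for 7.95% of all genes, and no groups were apart with MAT + COL higher, against 2.75% of all genes.

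PFKFB3 stood at 117, 309.9 and 534 TPM in MAT + COL, or 1.05, 0.827 and 1.07 times its MAT partners. With the block, the 95% interval of its Log2FC ran from -0.36 to 0.14, and that of LDHA from -0.25 to 0.21. VEGFA stood at 1.53, 2.92 and 15.2 TPM in MAT + COL and had the widest interval, from -1.18 to 0.03. CA9 (83.3, 112 and 212 TPM) and ADM (105, 307 and 370.4 TPM) were lower with collagen I in replicate 1 and higher in replicates 2 and 3. The remaining MAT + COL levels were 232, 364 and 1220.1 TPM for SLC2A1, 4.10, 7.20 and 18.5 TPM for HK2, and 6.84, 5.31 and 6.60 TPM for PFKFB4. PGK1 stood at 855, 1689.6 and 2267 TPM, LDHA at 1639, 2759.9 and 3398 TPM, and NDRG1 at 9.97, 56.4 and 90.1 TPM. In each case but PFKFB4 these followed the order of replicates seen in MAT. Listed genes with the smallest p of their list were SLC2A8, P4HA2, EGLN2, NRP2, NDRG4, PDK3, TKT and FBP2, with Log2FC from -0.58 (NRP2) to 0.70 (FBP2), none called.

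MAT + COL was also compared with CYST, which shares its controls with the comparison above. None of the 10 genes was called without the block (1.49% of all genes) and 1 was called with it (5.26% of all genes). This was PFKFB3, with a Log2FC of 2.19 ± 0.35 (edgeR adjusted p = 0.0324), and it was not called once the replicate 1 pair or the replicate 2 pair was left out (edgeR adjusted p = 0.0718 and 0.0508). NDRG1 had a Log2FC of 1.39 ± 0.34 (edgeR adjusted p = 0.0652), ADM of 1.99 ± 0.69 (edgeR adjusted p = 0.134) and CA9 of 1.34 ± 0.49 (edgeR adjusted p = 0.153). These 4 genes were higher in MAT + COL in all 3 pairs, that is 4 of 10 against 29.6% of all genes. No groups were apart, against 14.3% of all genes with MAT + COL higher.

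The replicate number carried more of the spread of these genes than the culture condition did. For log2 CPM (counts scaled to library size) over the 9 libraries, replicate number took a median of 73.7% of the sum of squares of the 10 genes and group 14.3%, where the medians over all genes were 32.0% and 29.9%. SLC2A1 was the extreme, with 95.7% by replicate number and 1.22% by group. PFKFB3 (47.1% and 46.5%) and ADM (39.5% and 40.1%) were divided about evenly. CA9 and PFKFB4 each had 43.1% by replicate number and 37.0% and 32.8% by group.

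**Figure D4:**
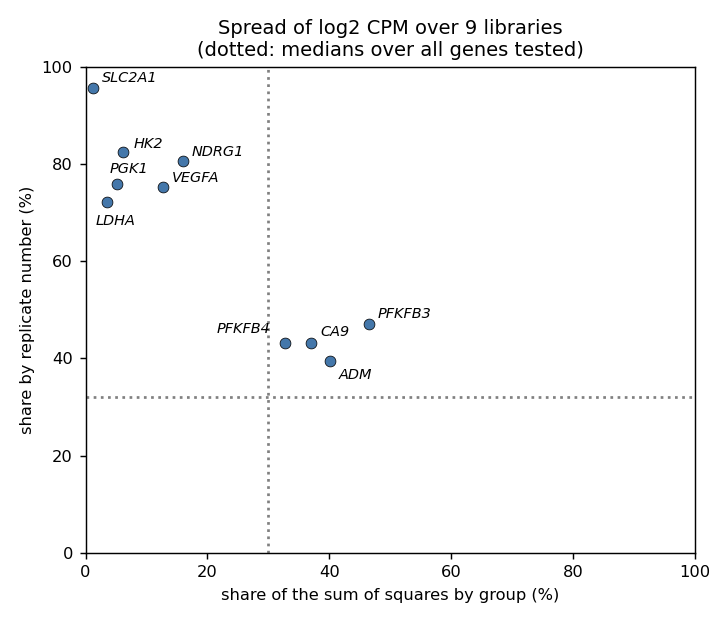
Share of each gene's sum of squares of log2 CPM over 9 libraries that went with group (x axis, %) and with replicate number (y axis, %), with dotted lines at the medians over all genes tested. SLC2A1, HK2, NDRG1, PGK1, VEGFA and LDHA lie above 70% by replicate number, and PFKFB3, PFKFB4, CA9 and ADM lie between 39.5% and 47.1%.

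Replicate 3 was the highest library in each of the 3 groups for 9 of the 10 genes, a pattern shown by 6.74% of all genes. The exception was PFKFB4, which in MAT + COL was 6.84 TPM in replicate 1 and 6.60 TPM in replicate 3. After this had been seen, the replicate number was tested with the group in the model (edgeR, 9 libraries), and 7 of the 10 genes were called, against 9.92% of all genes. NDRG1 and SLC2A1 had the smallest edgeR adjusted p of the 10 (7.5e-04 and 6.1e-04), and PFKFB4, CA9 and ADM were not called. As a description with no test, replicate 3 exceeded the other replicates by 6.85 times for VEGFA, 5.59 times for NDRG1, 3.52 times for SLC2A1 and 1.78 times for PFKFB4.

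This count depended on the EGF libraries, whose same-numbered MAT and MAT + COL cultures were alike. Without the CYST group 9 of the 10 genes were called, without the MAT group 1 (SLC2A1), and without the MAT + COL group 2 (SLC2A1 and NDRG1). The counts of all genes called in those fits were 3123, 50 and 197. Leaving out replicate 3 of MAT, replicate 3 of MAT + COL or replicate 3 of all groups left 3 of the 10 called in each case. Leaving out replicate 1 of all groups left 4. In that order, 424, 516, 659 and 642 of all genes were called (3.24%, 3.98%, 5.13% and 4.96%).

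Other genes of some lists followed the replicate number as well, for which 9.92% of all genes were called. Of 27 hypoxia-inducible genes outside glycolysis 12 were called for it, each higher in replicate 3 than in the mean of the other replicates in the fit, and of 24 other glycolysis and transport genes 7 were called, 6 of them higher in replicate 3. Named after their values were seen, the transporter SLC2A3 stood at 19.1, 25.4 and 286 TPM in CYST and at 13.8, 31.2 and 146 TPM in MAT, and ANKRD37, a HIF target, at 0.200, 0.929 and 54.9 TPM in CYST and 7.99, 37.8 and 95.1 TPM in MAT. Of 10 genes of HIF subunits and their regulators 2 were called, EPAS1 and ARNT2, both lower in replicate 3 than in that mean, and HIF1A was not. Of 10 genes of gluconeogenesis and glycogen 4 were called, 3 of them higher in replicate 3. Of 10 genes for pyruvate entry 1 was called, and of 7 pentose phosphate genes 0 were, which is near or below the share of all genes.

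Markers of other cells also moved with replicate number. The summed level of the 8 stroma markers in replicates 1, 2 and 3 was 2225, 3045 and 4798 TPM in CYST, 2092, 1191 and 3742 TPM in MAT and 2197, 2381 and 4249 TPM in MAT + COL. Replicate 3 was the highest of each group for 7 of the 8, and VIM, DCN, LUM and PDGFRA were called for replicate number. The 7 endothelial markers summed to 8.67 to 46.7 TPM. Their sum was highest in replicate 3 of each group, 4 of the 7 were highest there in all 3 groups, and 2 (PECAM1 and CLDN5) were called. KDR went the other way, lowest in replicate 3 of each group, and was not called. The part of these cells in the pattern of the 10 genes was not tested. Of 7 tested gland epithelium markers, 1 (PAX8) was called for replicate number, where 9.92% of all genes were. Of 5 leukocyte and 5 ciliated cell markers 1 each was called (CSF1R and FOXJ1). PAX8, CSF1R and FOXJ1 were lower in replicate 3 than in the mean of the others (Log2FC -0.78, -4.25 and -1.47). CSF1R rested on 0 to 2 reads in the replicate 3 libraries. Replicate 3 held 9958018, 12938664 and 16665013 counted reads in CYST, MAT and MAT + COL, and replicate 2 was the deepest of each group. The uteri were chosen at a single stage of the cycle and the libraries are all of day 5. Whether a replicate number marks the same individual in all 3 groups is not given in the sources used here. Individual and preparation cannot be told apart behind a replicate number.

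The spread between replicates was not alike in the groups. The highest CYST library exceeded the lowest 13.7 times for ADM, 8.63 times for CA9 and 7.29 times for PFKFB3, whereas the UG-LIKE libraries differed 2.32, 2.34 and 4.49 times. VEGFA also differed more in CYST, 11.6 times against 7.58 times in UG-LIKE. For NDRG1, SLC2A1 and HK2 the order was the other way, with 9.23, 2.74 and 2.08 times in CYST and 11.4, 3.53 and 4.12 times in UG-LIKE. These ratios are descriptions of 3 libraries a group and were not tested.

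Across the 9 libraries the 10 genes fell along a gradient of likeness. Pearson's r of log2(TPM + 1) was 0.97 for PGK1 and LDHA, 0.96 for PFKFB3 and ADM and 0.93 for SLC2A1 and HK2, with a median of 0.76 over the 45 pairs. HK2 was least like PFKFB4 (r = 0.22) and CA9 (r = 0.30). PFKFB3 and ADM, which had the highest Log2FC of the 10 between UG-LIKE and CYST in the fit with the block, were also close to NDRG1 (r = 0.91 and 0.83). The 9 points share 3 replicate numbers and 3 conditions, so r is a description here.

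**Figure D5:**
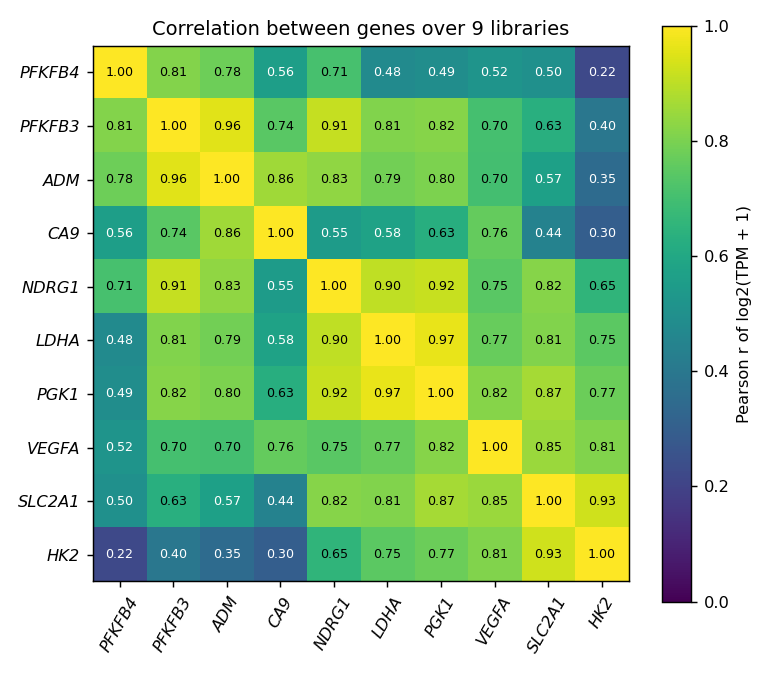
Pearson's r of log2(TPM + 1) over the 9 libraries for each pair of the 10 genes. The genes range from PFKFB4, PFKFB3, ADM and CA9 at the top left to SLC2A1 and HK2 at the bottom right. NDRG1, LDHA, PGK1 and VEGFA are placed between them, and r runs from 0.22 to 0.97.

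Among all 12857 other genes, those most like PFKFB3 were GPR15LG, PTPRE and PPP1R3B (r from 0.97 to 0.98), and ADM ranked 11. For VEGFA they were WFDC18, MAFK and an unnamed gene, ENSBTAG00000073594 (r = 0.96 for each). For NDRG1 they were KIAA1217, ERRFI1 and BCL2L15 (r from 0.97 to 0.99). ERRFI1, an inhibitor of the EGF receptor, stood at 53.3, 68.6 and 216 TPM in CYST, 70.7, 183 and 221 TPM in MAT and 78.2, 177 and 239.9 TPM in MAT + COL. WFDC18 reached 278 and 179 TPM in the third MAT and MAT + COL libraries and stayed at or under 66.1 TPM in the others.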

How the data were processed

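RNA-seq of 9 libraries (3 per group, day 5) was analysed. The labels describe epithelial cells of uterine glands. Total RNA was made into SMART-Seq libraries, and the authors aligned trimmed paired-end reads to ARS-UCD2.0 in CLC Genomics Workbench 25.0.1 with default parameters. The annotation release and strand setting are not given in the sources used here, so reads of overlapping or antisense genes cannot be told apart. The authors deposited counts of reads per gene, not normalized, and the TPM of these genes in each library. Counts carry no molecular identifiers.

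Counts were filtered with filterByExpr (minimum count 10), normalized by TMM and tested with edgeR 4.0.16 (glmQLFit, glmQLFTest) in R 4.3.3 on the 6 libraries of a comparison. A standard error is the Log2FC divided by the square root of F. Alternatives were DESeq2 1.42.0, limma 3.58.1 on log2(TPM + 1) and log2(TPM + 0.1), RLE factors, no filter, all 9 libraries, equal depth, the replicate block and leaving out libraries. Figures used matplotlib 3.10.9. The edgeR fits without a block were tested on simulated data that held no replicate effect. The fits with the block and the test of replicate number were not.

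Pairing by replicate number was checked before calls were compared. The deviations from the group means of same-numbered libraries correlated at 0.327, 0.434 and 0.395 (UG-LIKE and CYST), 0.474, 0.616 and 0.689 (MAT + COL and MAT) and 0.279, 0.352 and 0.348 (MAT + COL and CYST), so the numbers were taken to pair the libraries. Between libraries of different numbers the mean correlation was -0.191, -0.294 and -0.159 in the same order. The deviations of 3 libraries from their mean sum to 0. These negative values therefore follow from the same-numbered ones and add no separate support for the pairing. The pairing comes from the numbers in the sample titles and these correlations, as the labels name no animal. The numbers in the library names differ in part from those in the titles.

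The 10 genes and the pathway and marker lists were chosen with earlier results of these data known. Of 161 listed genes 158 are in the files. HIF1A and EPAS1, up to 3 genes per list with the smallest p in UG-LIKE against CYST without the block, the 1 with the smallest p in MAT + COL against MAT, and the 3 genes most like PFKFB3, VEGFA and NDRG1 were named. A gene that this rule names is not reported here. Sequences were not used here.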

Additional observations from a re-analysis of the deposited data

How the results depend on the processing

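PFKFB3, CA9, ADM and NDRG1 kept a positive Log2FC against CYST in all 19 alternatives run for each comparison, as did PFKFB4 for UG-LIKE. The calls of PFKFB3, CA9 and NDRG1 depended on the pairing. For UG-LIKE against CYST, the count of all genes called was 216, and it was 1278 with DESeq2, 1277 with the replicate block, 1979 with DESeq2 and the block, 580 with all 9 libraries and 2118 with all 9 and the block, and from 5 to 1867 when libraries or pairs were left out. Of the 10 genes, 0 were called, and 3, 4 and 3 with the block in edgeR, in DESeq2 and with all 9 libraries, and 0 to 4 in the leave-outs. For MAT + COL against CYST, 186 genes were called, and 1500, 658, 1912, 601 and 2035 under the same settings and 3 to 2406 in the leave-outs; of the 10 genes, 0 were called, and 1, 3 and 2 with the block in edgeR, in DESeq2 and with all 9 libraries, and 0 to 4 in the leave-outs. For MAT + COL against MAT, DESeq2 with the block called 1 gene, and the leave-outs 0 to 46. For replicate number, 1276 genes were called, and 2531 with DESeq2, 3123 without CYST, 50 without MAT and 197 without MAT + COL, and 424 to 2670 in the leave-outs; of the 10 genes, 7 were called, and 1 without MAT, 2 without MAT + COL and 3 to 8 in the leave-outs. The fits of 1 pair fewer or without a group hold fewer libraries; beyond that, the cause was not tested.

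Uncalled differences near 0 changed sign. For MAT + COL against MAT, the Log2FC of LDHA was 0.0058 with no filter, 4.4e-05 with all 9 libraries, 0.057 with limma under both pseudocounts and 0.010 at equal depth. That of NDRG1 was 0.067 with the block, 0.065 with DESeq2 and the block, 0.087 with all 9 libraries and the block, and 0.136 and 0.144 with limma. For MAT + COL against CYST, that of SLC2A1 was -0.107, -0.113 and -0.083 in the same 3 fits with the block, and -0.041 and -0.041 with limma.

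When libraries or pairs were left out, the Log2FC for UG-LIKE against CYST ran for SLC2A1 from -0.58 to 0.85, HK2 from -0.95 to 0.35, LDHA from -0.24 to 0.65, PGK1 from -0.038 to 0.71 and VEGFA from -0.31 to 2.61. For MAT + COL against MAT it ran for PFKFB3 from -0.72 to 0.38, SLC2A1 from -1.14 to 0.65, HK2 from -1.10 to 0.59, LDHA from -0.29 to 0.28, PGK1 from -0.40 to 0.31, VEGFA from -2.23 to 1.11, CA9 from -0.77 to 0.25, ADM from -0.45 to 0.33 and NDRG1 from -0.71 to 0.98. For MAT + COL against CYST it ran for PFKFB4 from -0.0087 to 0.98, SLC2A1 from -1.01 to 0.84, HK2 from -1.22 to 0.16, LDHA from -0.20 to 0.67, PGK1 from -0.18 to 0.72 and VEGFA from -0.81 to 2.06.

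In edgeR on 6 libraries, the block changed the calls of PFKFB3, CA9 and NDRG1 against CYST in UG-LIKE and of PFKFB3 in MAT + COL, and no other call among the 10 genes. In DESeq2 with the block, VEGFA was also called in UG-LIKE against CYST (adjusted p = 0.0348), and CA9 (adjusted p = 0.0142) and NDRG1 (adjusted p = 0.0015) in MAT + COL against CYST. Depth limits VEGFA most, with 13 to 398 reads per library.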
